A study of Homo sapiens with 20 samples.

Results

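The small nucleolar and Cajal body RNAs described here are the 12 RNAs of 2 families of short nuclear guide RNAs that drew at least 200 counts over 20 RNA sequencing libraries of immortalized human pericytes. The gene table named 450 RNAs with a SNORD, SNORA or SCARNA symbol and a number, among 58676 genes, and 173 of the 450 had any count. The 12 were SNORD13, SNORD63, SNORD89, SNORA11F, SNORA12, SNORA19, SNORA23, SNORA79, SNORA79B, SNORA80A, SCARNA18 and SCARNA22. Members were chosen by their name and total count, and the set was taken up because SNORD13 and SCARNA22 had shown an interaction of the treatments, so the interaction and the values it is made of are given for them as a description.

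The cells were 1 immortalized, wild-type pericyte line from Celther, kept in DMEM with fetal bovine serum. Pericytes are the contractile cells that wrap small vessels. The 4 groups of 5 libraries were control cells, cells given eNAMPT at 500 ng/mL, cells given PDGF-BB at 20 ng/mL, and cells given both, each for 4 hours. eNAMPT is the secreted form of an enzyme of NAD salvage, and PDGF-BB is a growth factor whose receptor PDGFRB marks pericytes. The labels call the 5 libraries of a group biological replicates and number them 1 to 5. They do not say whether a number marks a shared culture or day. The p-values measure the spread between these libraries left once the number is taken out, except in fits with no replicate block.

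Guide RNAs of this kind base-pair with other RNAs and direct a protein complex to modify them. Box C/D RNAs (SNORD) guide ribose methylation of ribosomal RNA with the methyltransferase fibrillarin, and box H/ACA RNAs (SNORA) guide pseudouridylation with dyskerin. Small Cajal body RNAs (SCARNA) carry the same boxes but act mostly on the spliceosomal RNAs, in the nuclear bodies that give them their name. In vertebrates most are cut out of introns of host genes after splicing. SNORD13 differs in that it has its own promoter and acts with the acetyltransferase NAT10 on small-subunit ribosomal RNA.

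The sequences below show the boxes that define the 2 families, for 7 of the RNAs described. The sequence of SNORD13 is not printed here. The others are transcripts of GENCODE 29 on GRCh38, written 5′ to 3′ with T for U. In the first 5, capitals mark the ACA box, which lies 3 bases before the 3′ end. SCARNA22, the second most counted of the 12, lies at chr4:1974636-1974760 (+) in an intron of NSD2. SNORA12 lies at chr10:100237156-100237302 (-) in an intron of CWF19L1, and SNORA19 at chr10:119060011-119060138 (-) in an intron of EIF3A. SNORA79, at chr14:81202695-81202834 (-) in an intron of GTF2A1, and SNORA79B, at chr14:20323179-20323326 (-) in an intron of CCNB1IP1, share a name.
SCARNA22: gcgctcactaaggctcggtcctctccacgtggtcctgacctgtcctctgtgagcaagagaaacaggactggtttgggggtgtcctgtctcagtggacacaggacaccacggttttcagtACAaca
SNORA12: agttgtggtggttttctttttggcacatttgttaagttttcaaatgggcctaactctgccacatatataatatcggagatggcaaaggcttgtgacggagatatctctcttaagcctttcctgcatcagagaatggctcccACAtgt
SNORA19: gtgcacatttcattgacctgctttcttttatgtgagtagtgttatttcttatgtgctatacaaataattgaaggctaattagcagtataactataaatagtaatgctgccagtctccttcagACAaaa
SNORA79: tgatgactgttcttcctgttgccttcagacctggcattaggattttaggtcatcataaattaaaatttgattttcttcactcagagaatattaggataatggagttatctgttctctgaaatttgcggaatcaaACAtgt
SNORA79B: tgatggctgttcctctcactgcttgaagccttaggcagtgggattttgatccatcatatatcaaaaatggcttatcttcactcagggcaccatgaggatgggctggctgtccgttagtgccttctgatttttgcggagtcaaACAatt

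In the next pair, both box C/D RNAs, capitals mark TGATG, the core of the C box, and CTGA, the D box. SNORD89 lies at chr2:101272936-101273049 (-) and SNORD63 at chr5:138561043-138561110 (-). Each overlaps an annotated exon of the gene around it on the same strand, RNF149 for SNORD89 and HSPA9 for SNORD63. Reads there could come from the host's exon or from the small RNA. How counting assigned them is not given in the sources used here.
SNORD89: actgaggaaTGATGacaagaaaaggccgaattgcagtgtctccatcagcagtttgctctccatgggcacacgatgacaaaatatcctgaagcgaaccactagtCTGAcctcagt
SNORD63: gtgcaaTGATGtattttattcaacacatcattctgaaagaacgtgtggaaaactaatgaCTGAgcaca

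ACA followed by 3 last bases ended 9 of the 9 SNORA and SCARNA members. The same ending was found in 125 of 172 rows of these 2 names (72.7%), in 4 of 278 SNORD rows and in 2.37% of all 206694 annotated transcripts. TGATG and CTGA both occurred, anywhere and on the transcript strand, in 3 of 3 SNORD members and in 251 of 278 SNORD rows (90.3%), against 27 of 172 SNORA and SCARNA rows. SNORA79 and SNORA79B matched at 102 of 149 aligned positions (68.5%), and the longest run they shared letter for letter was 11 bases. Longer shared runs occurred elsewhere: SNORD13 shared 49 of its 104 bases with SNORD13P3, which had 1 count, and SNORA80A shared 34 of 136 with SNORA80B, which had 17. SCARNA18 shared 27 of 134 with SCARNA18B, which had 134 counts. SNORA11F shared 27 of 128 with SNORA11, which had 1. The other members shared at most 13 bases with any row.

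Of the 12 members, 2 had no annotated host on their own strand: SNORD13, on chromosome 8, which lies opposite an exon of TTI2, and SNORA11F, at chr10:73126080-73126207 (-), opposite an intron of NUDT13. Of the other 10, 8 lay in an intron and 2 overlapped an exon of their host. SCARNA18 lay at chr5:83064204-83064337 (-) in TMEM167A, SNORA23 at chr11:9428773-9428954 (+) in IPO7, and SNORA80A at chr21:32377187-32377322 (-) in URB1. Whether the counting used strand is not given in the sources used here. TTI2 had 837 counts over the 20 libraries against 12204 for SNORD13, and NUDT13 had 96 against 705 for SNORA11F.

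The members had lengths of 68 to 182 bases and a median of 131, close to the median of 125 for the 161 rows with counts below the limit, while the 277 rows at 0 had a median of 86. Of those 277 rows, 137 overlapped an exon of a gene on the same strand, against 9 of the 161 rows with counts below the limit and 2 of the 12 members. What read counting did with reads in such overlaps was not tested. Among RNAs that take part in ribosome assembly, SNORD3A had 111 counts, SNORD14A 66, SNORA73B 15 and SNORD14E 7. SNORD118 and SNORA73A had 0, as did the Cajal body RNAs SCARNA2 and SCARNA17. Just inside the limit were SNORA79B with 345 counts, SNORD63 with 311 and SNORA80A with 256, and just outside it SNORD114-13 with 191, SNORD104 with 166 and SNORA33 with 153.

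SNORD13 and SCARNA22 held 76.6% of the 27391 counts of the 12. Levels are given as CPM, counts scaled to 1000000 gene counts per library after TMM. Per kilobase of RNA, the mean level over the 20 libraries was 1786 CPM for SNORD13 and 1067 CPM for SCARNA22. SNORA12 followed at 178 CPM per kilobase, SNORA19 at 129.9, SNORA11F at 84.0, SNORD89 at 82.2 and SNORD63 at 68.8. SNORA79 stood at 60.1 CPM per kilobase, SCARNA18 at 50.01, SNORA79B at 35.6, SNORA23 at 31.1 and SNORA80A at 29.1. From SNORA11F down, each step in this order was smaller than the coefficient of variation within groups, which was 30.6% to 42.9% for these 8 RNAs. It was 25.4% to 31.7% for the 4 above them. How far this order follows the amounts in the cells was not tested.

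**Figure D1:**
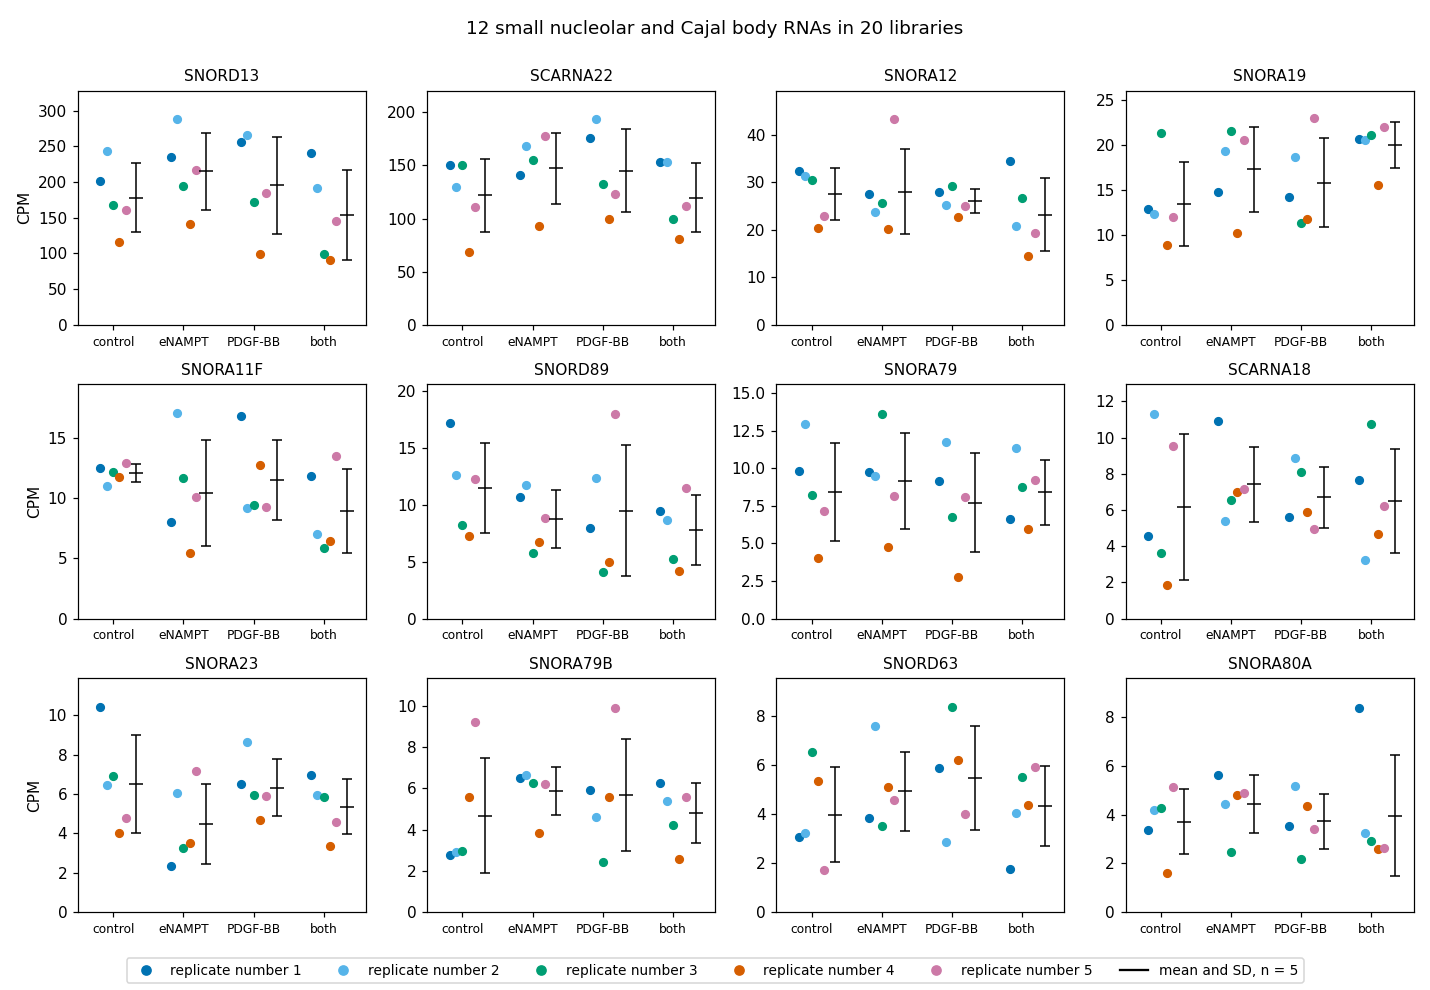
Level of each of the 12 RNAs (vertical axes, CPM, from 0, a scale of its own per panel) in the 20 libraries by group, coloured by replicate number, with the group mean and SD (n = 5). The groups overlap in every panel, and number 4 is the lowest of its group in all 4 groups for SNORD13, SCARNA22, SNORA12 and SNORA79.

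SNORD13 was measured at 201, 244, 168, 116 and 161 CPM in control replicates 1 to 5. With eNAMPT it was at 235, 289, 194, 141 and 217 CPM. PDGF-BB libraries held 256, 265, 172, 99.4 and 185 CPM, and libraries given both held 241, 191, 99.8, 91.1 and 146 CPM. Replicates 1 and 2 were the high libraries and replicate 4 the lowest in each group, and the ranges of the 4 groups overlapped. Control averaged 178 ± 47.9 CPM, eNAMPT 215 ± 54.0, PDGF-BB 196 ± 67.9 and the combination 154 ± 63.2 (SD, n = 5).

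SCARNA22, a guide RNA encoded in the gene of the histone methyltransferase NSD2, was at 150.2, 130.1, 150.4, 68.4 and 111 CPM in control replicates 1 to 5. It stood at 141, 169, 155, 93.4 and 178 CPM with eNAMPT and at 176, 194, 132, 99.4 and 123 CPM with PDGF-BB. With both agents it was at 153, 153, 99.5, 80.8 and 111 CPM. Number 4 was again lowest in every group, and the groups overlapped. The means were 122 ± 34.2, 147 ± 33.1, 145 ± 39.1 and 119.5 ± 32.5 CPM in the same order (SD, n = 5).

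Whether each agent moved these RNAs on average over the presence of the other is a different contrast from the interaction that chose the set. For SNORD13 and SCARNA22 it still uses the same libraries and the same estimate of spread. A call of either RNA is therefore not independent of that choice. Both pooled effects compare 10 libraries with 10, in a negative binomial model of all 20 libraries with the replicate number as a block. A gene passed at a Benjamini-Hochberg adjusted p under 0.05 over 12111 genes. All 12 RNAs were above the filter on low counts.

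No member passed for eNAMPT in edgeR, DESeq2 or limma-voom, and 1 had an unadjusted p under 0.05. Of all genes 0.223% passed. The 12 pooled log2 fold changes ran from -0.39 (SNORA23) to 0.35 (SNORA19), with 7 above 0 and 5 below, and a median of 0.01 beside 0.00 for all genes. For SNORD13 the value was -0.04 (95% interval -0.14 to 0.06) and for SCARNA22 0.00 (-0.11 to 0.12). The intervals of the rarer RNAs were wide, for example -0.44 to 0.72 for SNORA80A, which had 256 counts in all. A change within that interval could not be told from 0. The part of depth in its width was not tested.

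SNORA19 was the only member with an unadjusted p under 0.05 for eNAMPT, a share that 5.28% of all genes reached. This H/ACA RNA was at 12.9, 12.3, 21.3, 8.81 and 11.9 CPM in control replicates 1 to 5 and at 14.8, 19.3, 21.5, 10.2 and 20.6 CPM with eNAMPT. It was at 14.2, 18.7, 11.3, 11.8 and 23.0 CPM with PDGF-BB and at 20.6, 20.6, 21.1, 15.5 and 22.0 CPM with both. Within replicate numbers it was higher with eNAMPT in 9 of 10 comparisons. The pooled log2 fold change was 0.35 ± 0.14 (SE), with an edgeR adjusted p of 0.74. The transcript of its host EIF3A, a subunit of a translation initiation factor, gave -0.03 ± 0.03 for the same contrast.

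For PDGF-BB, for which 7.91% of all genes passed, 1 of the 12 passed and 11 did not. SNORD13 was lower by the pooled estimate, with a log2 fold change of -0.21 ± 0.05 (SE) and an edgeR adjusted p of 0.00329. That estimate averages 2 differences of opposite sign, 0.11 ± 0.07 without eNAMPT and -0.52 ± 0.07 with it, and SNORD13 was higher with PDGF-BB in 5 of 10 comparisons within replicate numbers. The call was lost with no replicate block (log2 fold change -0.17, adjusted p = 0.633), in DESeq2 (adjusted p = 0.106), with scaling by spike-ins (0.279) and without the 4 libraries of number 4 (0.0612). Over the 29 alternatives the adjusted p ran from 3.49e-05 to 0.633, and the value was below 0 in each of them.

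The other 11 had PDGF-BB effects from -0.28 (SNORD89) to 0.23 (SNORA19), and the smallest adjusted p among them was 0.372 (SNORA19). The median of the 12 was -0.07 beside -0.01 for all genes, with 9 below 0 and 3 above. For SCARNA22 the effect was -0.03 (95% interval -0.14 to 0.09). SNORD89, a box C/D RNA, was lower with PDGF-BB in 8 of 10 comparisons within numbers, at -0.28 ± 0.19 (adjusted p = 0.447), and its interval of -0.65 to 0.09 reached past 0.

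**Figure D2:**
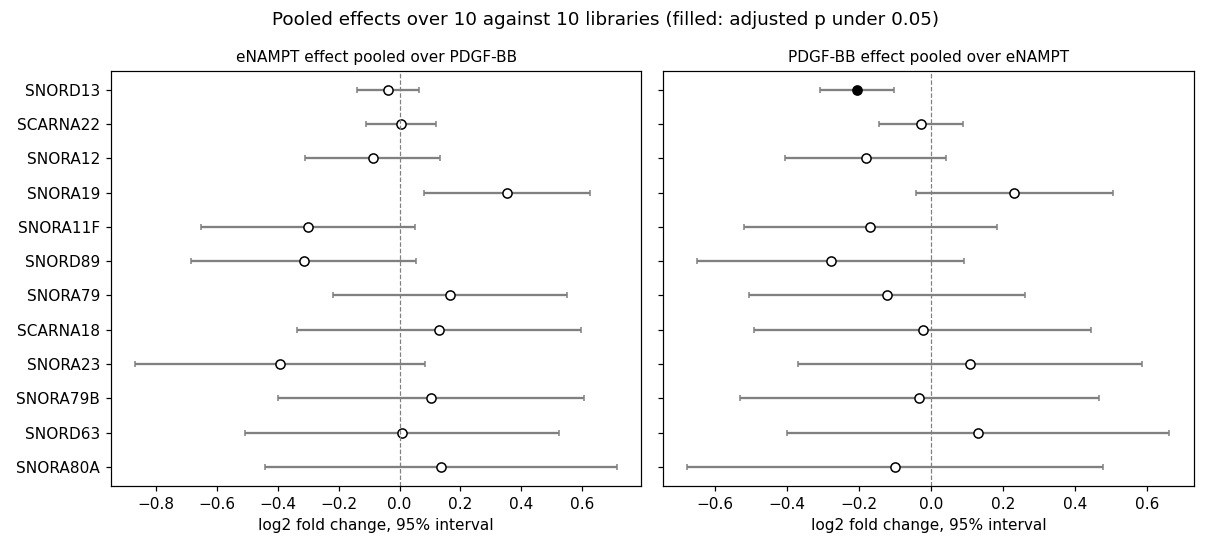
Log2 fold change (horizontal axes) of the 12 RNAs for each agent, pooled over the presence of the other, with 95% intervals from the model over 20 libraries. SNORD13 with PDGF-BB, at -0.21, is the filled point that passed, and the intervals widen from the most to the least counted RNA.

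Compared group by group, the design shares control libraries between contrasts, and each contrast is given on its own. In edgeR no member passed for eNAMPT against control, where 0.173% of all genes passed, nor for PDGF-BB against control, where 3.11% did. At an unadjusted p under 0.05 there were 2 (SNORD13 and SCARNA22) and 1 (SCARNA22), beside 5.44% and 13.2% of all genes, and DESeq2 passed 0 in each. Leaving out control replicate 3 or eNAMPT replicate 1 let both pass for eNAMPT against control. Leaving out control replicate 3 or PDGF-BB replicate 3 or 5 let SCARNA22 pass for PDGF-BB against control. The groups overlapped for all 12 in each of the 5 comparisons. They did not overlap for 0.652% of genes (eNAMPT against control), 2.29% (PDGF-BB against control), 2.93% (both against control), 0.586% (both against PDGF-BB) and 2.68% (both against eNAMPT). SNORA19 and SNORD89 stood at the 2 ends of the comparison of both agents with control, which 4.21% of all genes passed. SNORA19 was at 20.0 ± 2.55 CPM with both against 13.4 ± 4.68 in control, a log2 fold change of 0.59 ± 0.20 that missed the threshold (edgeR adjusted p = 0.0707), and was higher in 4 of 5 numbers. Without control replicate 3, the highest control library at 21.3 CPM, SNORA19 passed this comparison (adjusted p = 0.0137), and it passed in 1 of 30 alternatives. SNORD89 was at 7.79 ± 3.05 CPM against 11.5 ± 3.96, a log2 fold change of -0.59 ± 0.26 (adjusted p = 0.249), and was lower in 5 of 5 numbers.

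With all libraries in the model, the only members that passed a comparison between 2 groups were the 2 that chose the set, so their values are descriptions. SNORD13 passed for both agents against control at -0.24 ± 0.07, a call lost without control replicate 2, 3 or 4 or without replicate 2, 3, 4 or 5 of the cells given both. For both agents against PDGF-BB alone, which 0.124% of genes passed, SNORD13 gave -0.35 ± 0.07, lower in 5 of 5 numbers. SCARNA22 gave -0.28 ± 0.08, also lower in 5 of 5, but did not pass (adjusted p = 0.292). The SNORD13 call was lost without PDGF-BB replicate 1 or 3 or without replicate 2 or 3 of the cells given both. For both agents against eNAMPT alone, which 4.22% of genes passed, SNORD13 gave -0.52 ± 0.07 and SCARNA22 -0.31 ± 0.08, each lower in 4 of 5 numbers. There the SCARNA22 call was lost without eNAMPT replicate 3 or 5 or without replicate 3 of the cells given both. With no replicate block none of these comparisons kept a call (adjusted p 0.316 to 0.9998).

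The interaction is the log2 effect of eNAMPT in the presence of PDGF-BB minus that in its absence. For SNORD13 eNAMPT alone gave 0.28 ± 0.07 against control and -0.35 ± 0.07 on top of PDGF-BB, and the interaction was -0.63 ± 0.10. For SCARNA22 the corresponding values were 0.29 ± 0.08, -0.28 ± 0.08 and -0.56 ± 0.12. Over all genes 0.0578% passed for this contrast, 7 in number, and SNORD13 and SCARNA22 were 2 of them, which the choice of the set fixes. Computed within each replicate number, the SNORD13 value was -0.31, -0.71, -0.99, -0.41 and -0.78 for numbers 1 to 5, and the SCARNA22 value was -0.11, -0.72, -0.45, -0.74 and -0.83. All 10 values lay below 0, a sign that the choice of the set by this contrast favours. Number 1 gave the value nearest 0 for each RNA.

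Without the block, the estimates stayed at -0.63 for SNORD13 and -0.56 for SCARNA22, while the standard errors rose to 0.28 and 0.24 and the adjusted p of each to 0.9985. Scaling by spike-ins moved the median of all genes for this contrast to -0.17, against which SNORD13 was at -0.80 and SCARNA22 at -0.77, and neither passed (adjusted p = 0.959 for each). DESeq2 passed neither (0.335 and 0.737). The SCARNA22 call was also lost without PDGF-BB replicate 1 or 2, eNAMPT replicate 3 or 5, or replicate 3 of the cells given both.

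The other 10 members had interactions from -0.68 (SNORD63) to 0.29 (SNORA23), with a median of -0.20, 7 below 0 and 3 above. Their standard errors of 0.22 to 0.58 compare with 0.10 for SNORD13. SNORA79B, with -0.59 ± 0.50, lay below 0 within all 5 numbers, from -0.24 to -1.02, and SNORD63 lay below 0 in 4 of 5, from 0.25 to -1.80. SNORA19, the member with the highest pooled eNAMPT value, had an interaction of 0.00 ± 0.26, so its eNAMPT difference was 0.35 ± 0.20 without PDGF-BB and 0.35 ± 0.19 with it.

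**Figure D3:**
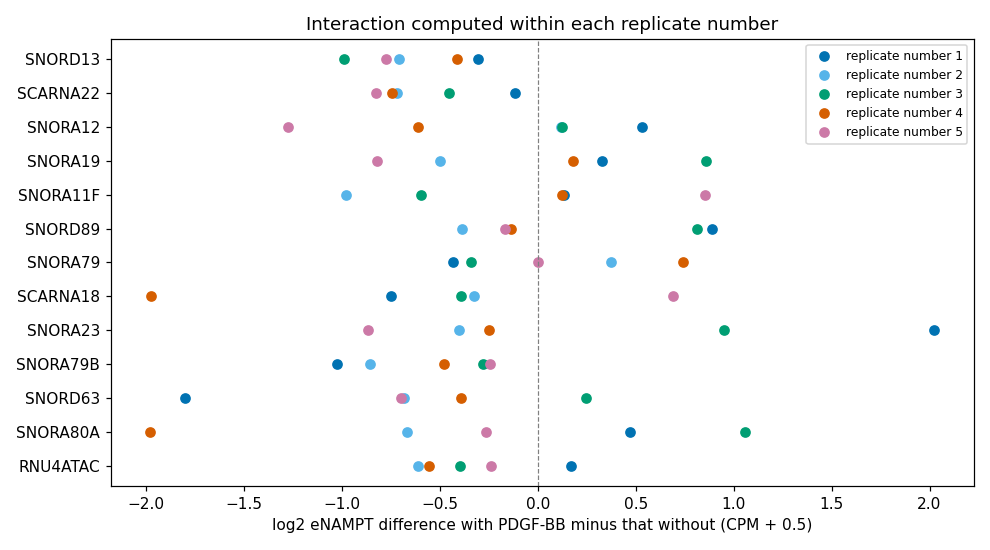
Interaction of the 12 RNAs and of RNU4ATAC within each replicate number (horizontal axis, log2 difference of CPM + 0.5, 1 point per number). All 5 points lie below 0 for SNORD13, SCARNA22 and SNORA79B, and the points of the rarer RNAs spread to either side.

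RNU4ATAC, the U4atac RNA of the minor spliceosome, is no member but gave the same order of group means. Control averaged 1328 ± 381 CPM, eNAMPT 1417 ± 358, PDGF-BB 1349 ± 431 and the combination 1175 ± 409.9 (SD, n = 5). Its interaction was -0.31 ± 0.07 (edgeR adjusted p = 0.0449), below 0 in 4 of 5 numbers, and it passed in 10 of 29 alternatives. Its pooled PDGF-BB effect of -0.14 ± 0.04 passed (adjusted p = 0.00255), and passed in 26 of 29 alternatives but not with no replicate block (0.755). Of 23 other structured small RNAs on a fixed list, 3 were frequent enough to be tested, and RN7SL2 and VTRNA1-3 passed none of the pooled effects.

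**Figure D4:**
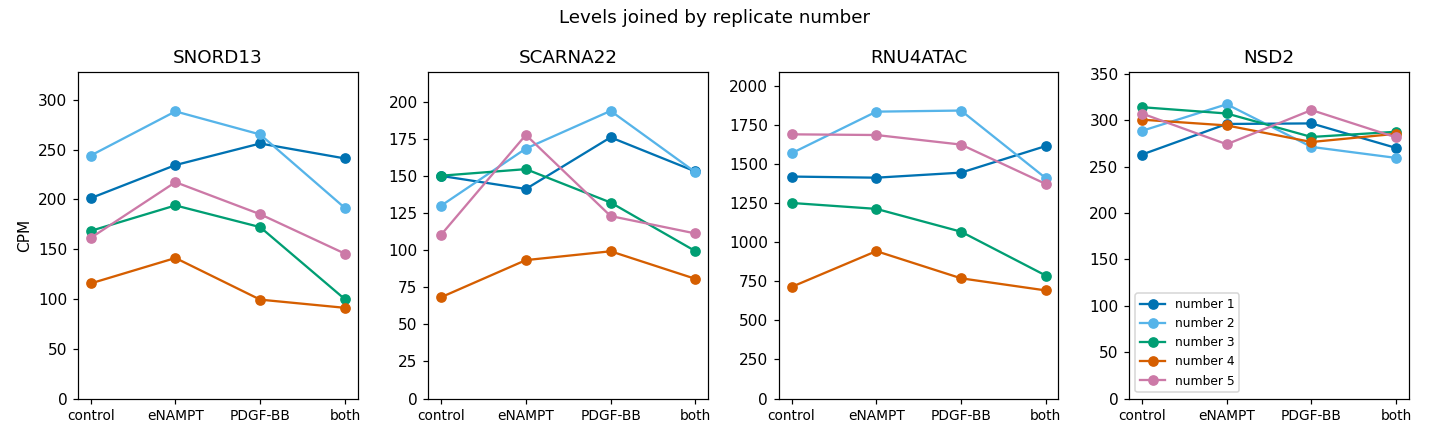
Level (vertical axes, CPM, from 0) of SNORD13, SCARNA22, RNU4ATAC and NSD2, the host gene of SCARNA22, in the 4 groups, with libraries of the same replicate number joined. The number 4 line is lowest throughout for the 3 small RNAs, while the 5 NSD2 lines cross between 259 and 317 CPM.

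Some of the 12 RNAs also differed by replicate number. The number term of the model passed for 5 of the 12, SNORD13 (adjusted p = 1.95e-26), SCARNA22 (6.72e-15), SNORD89 (0.000852), SNORA79 (0.0116) and SNORA12 (0.0404), where 12.8% of all genes passed. Mean SNORD13 over the 4 groups was 233 CPM in number 1, 247 in number 2, 159 in number 3, 112 in number 4 and 177 in number 5. The spread of its log2 level within groups was 0.50 (SD), and 0.19 once the number was taken out. For RNU4ATAC the number term had an adjusted p of 2.82e-40.

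Number 4 was the lowest library in all 4 groups for SNORD13, SCARNA22, SNORA12 and SNORA79, as for 0.867% of all genes tested. No member had another number lowest throughout, which held for 0.355% of genes with number 1, 0.677% with number 2, 0.206% with number 3 and 1.58% with number 5. SNORA79 stood at 4.01, 4.78, 2.79 and 5.95 CPM in number 4 of control, of eNAMPT, of PDGF-BB and of both agents, and between 6.63 and 13.6 CPM in the other 16. SNORD89 was low in 2 numbers, with means of 5.80 CPM in number 3 and 5.75 in number 4, against 11.3 in number 1, 11.3 in number 2 and 12.6 in number 5. Summed over the 10 members other than SNORD13 and SCARNA22, the number 4 libraries held 64.2 to 81.7 CPM and the other 16 held 87.7 to 121 CPM, with no overlap. SNORA12 (mean 26.2 CPM) and SNORA19 (16.6 CPM) weighed most in this sum. The lowest mean by number was in number 4 for all of these 10 but SNORA79B, SNORA80A and SNORD63. SNORA79B and SNORA80A were lowest in number 3, and SNORD63 in number 1.

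Rows of the families that were not members had a like order by number but overlapped. Together, the rows with fewer than 200 counts summed to 34.7 to 58.0 CPM in the number 4 libraries and to 43.6 to 78.3 CPM in the others. By group, these rows averaged 55.5 CPM in control, 67.5 in eNAMPT, 60.8 in PDGF-BB and 55.2 in the libraries given both. The number 4 libraries held 3104586 to 4011066 gene counts against 2894878 to 3759592 in the others. Spike-in counts were 1.02% to 1.39% of gene counts in number 4 and 1.05% to 1.96% elsewhere. Mitochondrial genes took 8.27% to 8.72% against 8.35% to 9.71%. The part of depth and of spike-in and mitochondrial shares in these differences was not tested.

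**Figure D5:**
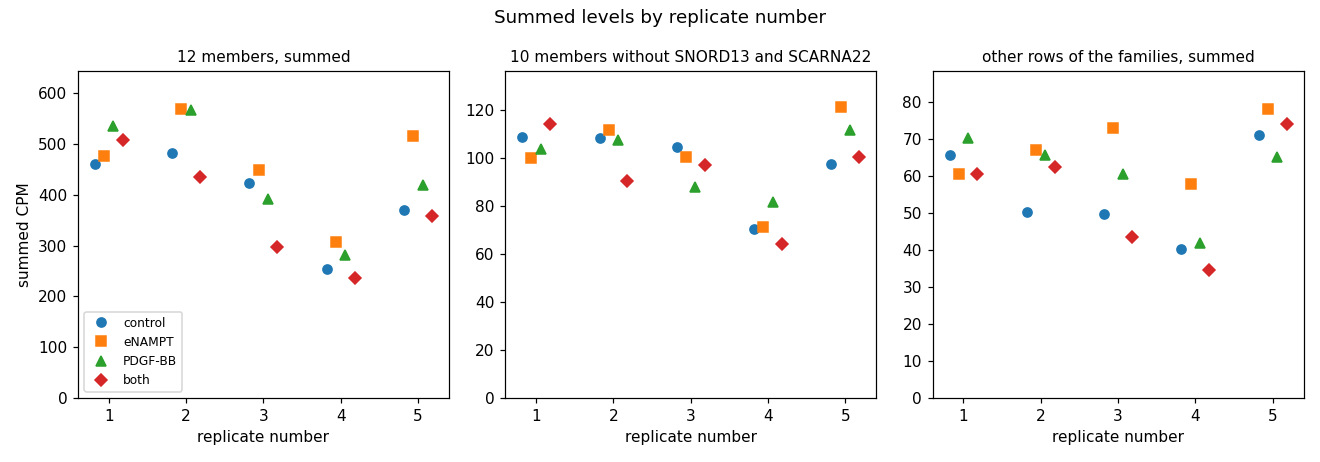
Summed CPM per library (vertical axes, from 0) by replicate number, with a symbol per group, for the 12 members, the 10 without SNORD13 and SCARNA22, and the other rows of both families, below the limit. In the middle panel the number 4 libraries, at 64.2 to 81.7 CPM, lie below the other 16.

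The host genes were compared in the same model. NSD2 averaged 295 ± 20.1 CPM in control, 298 ± 16.2 in eNAMPT, 288 ± 16.2 in PDGF-BB and 277 ± 11.9 in the libraries given both (SD, n = 5). Its means by replicate number were 282 to 298 CPM, over which SCARNA22 went from 85.5 to 161 CPM. TTI2, opposite SNORD13, was at 9.79 to 16.6 CPM by number and did not have its lowest mean in number 4 (12.1 CPM). None of the 11 hosts or opposite genes tested passed for eNAMPT. For PDGF-BB, HSPA9, a mitochondrial chaperone and host of SNORD63, rose by 0.18 ± 0.04 on the log2 scale (edgeR adjusted p = 0.000157), and EIF3A, host of SNORA19, rose by 0.10 ± 0.03 (adjusted p = 0.0296). SNORD63 was at 0.13 ± 0.27 and SNORA19 at 0.23 ± 0.14 for that contrast, neither past the threshold. HSPA9 passed in 28 of 29 alternatives, all but spike-in scaling. EIF3A passed in 18 of 29, and its call was lost with spike-ins (0.964), no replicate block (0.287), the second count table (0.057) or without number 4 (0.279). It was also lost without replicate 2 or 4 of control, 3 or 4 of eNAMPT, 4 of PDGF-BB, or 2 or 4 of the cells given both.

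Counts of a small RNA against its host varied widely. For each 100 counts of the host there were 128 of SNORA12 (CWF19L1), 46.0 of SCARNA22 (NSD2) and 20.8 of SNORA79B (CCNB1IP1). There were 1.94 of SNORA19 (EIF3A), 2.00 of SNORA23 (IPO7) and 1.26 of SNORD63 (HSPA9). These ratios compare RNAs of different length and are given as counts only.

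The proteins that bind these RNAs were read from lists, beside the 7.91% of all genes that passed for PDGF-BB. With PDGF-BB, 2 of 4 box C/D core proteins rose, NOP56 by 0.18 ± 0.04 (edgeR adjusted p = 0.000424) and NOP58 by 0.19 ± 0.04 (0.00142). Fibrillarin (FBL) was at 0.01 ± 0.04 and SNU13 at 0.07 ± 0.04, and neither passed. Of the 4 H/ACA core proteins, the pseudouridine synthase DKC1 rose by 0.15 ± 0.03 (0.000633) and NOP10 by 0.19 ± 0.05 (0.00132), while GAR1 was at 0.19 ± 0.06 (0.0538) and NHP2 at -0.03 ± 0.05. The list medians were 0.13 and 0.17 on the log2 scale, beside -0.01 for all genes.

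None of 16 assembly and processing factors passed with PDGF-BB, NAT10 among them. Of 12 Cajal body and nucleolar proteins, 3 rose: NOLC1 by 0.18 ± 0.05 (adjusted p = 0.00839), TCOF1 by 0.16 ± 0.05 (0.0191) and NPM1 by 0.09 ± 0.03 (0.0296), with a list median of 0.04. NOLC1 is a chaperone that shuttles these complexes, TCOF1 serves ribosomal RNA transcription and NPM1 is the main granular protein of the nucleolus. Of 16 noncoding genes that host small nucleolar RNAs, SNHG17 rose by 0.38 ± 0.08 (8.08e-05) and 15 did not pass, a share near that of all genes. The 7 protein calls were lost with spike-in scaling and with no replicate block, while SNHG17 passed in 28 of 29 alternatives, TCOF1 in 20 and NPM1 in 19. Without the libraries of number 4, 1 of the 12 Cajal body and nucleolar proteins passed. With eNAMPT none of the genes on these 5 lists passed in edgeR or DESeq2. At an unadjusted p under 0.05 there were 3, NHP2 at 0.13 ± 0.05 (adjusted p = 0.642), SNHG12 at -0.24 ± 0.12 and SNHG15 at -0.22 ± 0.11 (0.928 each).

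The libraries held 2894878 to 4011066 gene counts, of which the 12 RNAs took 0.0227% to 0.0576%. Of 10 pericyte markers 9 had a mean over 1 CPM, while desmin (DES) stood at 0.561 CPM. Of the markers of other cells, 0 of 4 epithelial, 2 of 6 endothelial and 2 of 5 leukocyte genes did, as did 5 of 5 fibroblast genes. The leukocyte marker CD14 averaged 17.8 CPM. Summed fibroblast markers were at 2977 to 4234 CPM, most of it COL1A1 (mean 3299 CPM), and summed pericyte markers at 321 to 444 CPM. These lists alone do not set pericytes apart from fibroblasts. Summed endothelial markers were at 3.29 to 11.5 CPM over all libraries. In bulk RNA, fewer cells that make an RNA and less of it per cell cannot be told apart.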

How the data were processed

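Total RNA of 20 samples was sequenced. Per the submitters' processing notes, the tools were DESeq2 (1.18.1), featureCounts (1.6.4), STAR (2.6.1a) and FastQC (0.11.7), with the GRCh38 build. Their settings are not given in the sources used here. The authors deposited raw counts per gene and library, with no normalization, in 2 tables. The first was used, and the second served as an alternative, with totals equal for 7 of the 12 RNAs. What separates the tables, and the strand setting, is not given in the sources used here.

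Spike-ins (92 ERCC, 7 SIRV) were left out. Counts were filtered with filterByExpr (12111 genes), scaled by TMM and fitted with edgeR 4.0.16 (glmQLFit, glmQLFTest, two-sided, R 4.3.3) with 4 group means and the replicate number as a block, which the definition of the set asks for. Standard errors are the log2 fold change over the square root of F. Positions, hosts and sequences are from GENCODE 29, in which all 58676 identifiers and all 450 rows were found. All 12 members are named. Members and gene lists were chosen with earlier results of these data known. Alternatives were DESeq2 1.42.0, limma-voom (3.58.1), RLE, spike-in scaling, 2 filters, no block, the second table, only the groups compared and leaving out each library. Leaving out all libraries of number 4 was added after seeing the data.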

Additional observations from a re-analysis of the deposited data

Results flagged for a closer look

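In 3 of 48 sets of 5 libraries (12 RNAs in 4 groups) one library stood apart from the rest of its group, about the 1 in 20 that chance gives. SNORA19 was at 15.5 CPM in replicate 4 of the cells given both, where the other 4 were at 20.6 to 22.0. SNORA79B was at 3.83 CPM in eNAMPT replicate 4, below 6.20 to 6.66 in the others. SNORA80A was at 8.38 CPM in replicate 1 of the cells given both, above 2.59 to 3.25.

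In edgeR with the block, the interaction term passed for SNORD13 (-0.63 on the log2 scale), SCARNA22 (-0.56) and RNU4ATAC (-0.31). That term is the eNAMPT effect with PDGF-BB minus that without. SNORD13 and SCARNA22 chose the set by it, so their values are descriptions, and RNU4ATAC was found in the same contrast. None of these RNAs passed it in DESeq2, with spike-in scaling or with no block.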

How the results depend on the processing

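The numbers of members passing, the pooled effects of the 12 and the interactions of SNORD13 and SCARNA22 were recomputed under the alternatives. Of the 963 values, 855 were unchanged, meaning an equal number passing or an effect with the same direction and side of the threshold. An equal number could hold other members, as without control replicate 3 for both agents against control. With no replicate block, 0 members passed for PDGF-BB pooled, both agents against control, against PDGF-BB and against eNAMPT, and for the interaction. SNORD13 then gave -0.17 (PDGF-BB pooled) and -0.63 (interaction), SCARNA22 -0.56 (interaction) and -0.00330 (eNAMPT pooled), and SNORD63 -0.0229 (eNAMPT pooled). Same-numbered libraries deviated together weakly, with correlations of 0.00138 to 0.176 over 30 pairs (median 0.0901), 12 of them over 0.1. Over 120 pairs of unlike number the median was -0.0257, and 3 were over 0.1. For 12 of 20 libraries, the mean correlation with libraries of the other groups was highest for their own number. The labels do not say that the numbers pair the libraries. The calls lost without the block therefore depend on a pairing that the labels do not state.

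With DESeq2 and with spike-in scaling, 0 members passed for PDGF-BB pooled, both against control, both against PDGF-BB and the interaction, and 1 for both against eNAMPT. DESeq2 gave SNORD13 -0.21 and -0.63 (PDGF-BB pooled, interaction) and SCARNA22 -0.57 (interaction), and spike-in scaling gave -0.28, -0.80 and -0.77. Values near 0 changed sign for SCARNA22 with eNAMPT (limma-voom -0.000651, spike-ins -0.0645), for SNORD63 with eNAMPT (-0.0629 and -0.0659) and for SCARNA18 with PDGF-BB (limma-voom 0.0215). With no filter 1 member passed for eNAMPT and 1 for PDGF-BB against control, and 1 for eNAMPT against control when only those groups were fitted. Without number 4, 0 passed for PDGF-BB pooled (SNORD13 -0.16) and for both against control, and 1 for the interaction, SNORD13, while SCARNA22 at -0.52 did not. SCARNA22 was then at -0.0107 for eNAMPT pooled. The cause of these changes was not tested.

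Leaving out each library in turn, the number passing ran from 0 to 2 for eNAMPT against control, 0 to 1 for PDGF-BB against control, both against control and both against PDGF-BB, and 1 to 2 for both against eNAMPT and the interaction. The 1 that passed for both against control was SNORD13 or, without control replicate 3, SNORA19. The SCARNA22 interaction ran from -0.68 to -0.45. For eNAMPT pooled, SNORD13 ran from -0.11 to 0.00867, SCARNA22 from -0.0496 to 0.0615, SCARNA18 from -0.00969 to 0.30, SNORD63 from -0.13 to 0.14 and SNORA80A from -0.0407 to 0.25. For PDGF-BB pooled, SCARNA22 ran from -0.0737 to 0.0272, SCARNA18 from -0.15 to 0.18, SNORA23 from -0.0105 to 0.25, SNORA79B from -0.13 to 0.0796 and SNORA80A from -0.29 to 0.00976. Over all genes, the pooled PDGF-BB calls went from 633 up and 325 down to 358 and 122 with no block and to 116 and 56 with spike-in scaling, which moved medians of all genes by up to -0.17. A mean of at least 20 counts kept 8 members. The 10 rarer RNAs had 256 (SNORA80A) to 1715 (SNORA12) counts each in all, and the part of depth in their spread was not tested.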
